A study of Mus musculus with 10 samples.

Results

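Microglia sorted from brain slices cultured for 3 weeks were compared with microglia sorted from the adult brain, to see how closely a slice culture keeps the expression profile of the cells it is used to study. Every cell with at most 5% of its UMIs (unique molecular identifiers, 1 per captured transcript) from mitochondrial genes, at least 400 genes and at most 30000 UMIs was taken, and its raw counts were summed within its library, which made the library the replicate. The comparison used 4 of the 10 libraries of the series, with 1153 and 3740 cells in slice 3 weeks replicates 1 and 2 and 3799 and 3527 cells in adult replicates 1 and 2. These were 12219 of the 19059 cells kept in all, 4893 from slices and 7326 from adult brain. Adult microglia came from the whole brain of adult C57BL/6 mice and were sorted without culture. Slice 3 weeks microglia came from coronal slices of neonatal C57BL/6 pups, cut without cerebellum and olfactory bulb, kept on a membrane in medium with horse serum and human PDGF, and pooled from several slices before sorting. No transgene or stimulus is named for either group, and both were sorted on ice as live CD11b high, CD45 intermediate cells for 10x Genomics 3′ libraries. The labels name an input of about 1000 cells per library, fewer than the cells found in each of the 4 libraries. The age of the donor animals, the brain region and the culture differ together between the groups and cannot be told apart. The study calls the 2 samples of a group independent, but whether they came from separate animals or cultures is not given. The p-values thus measure the spread between libraries of a group, estimated over all 10 libraries of the series and not the 4 compared alone.

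Microglia are the resident macrophages of the brain. In the healthy adult brain they hold a sensing profile that depends on TGF-beta and on colony stimulating factor signals from their neighbours, with purinergic receptors, Siglec lectins and transcription factors such as SALL1 as its best known parts. In ageing, demyelination and models of neurodegeneration, many of the genes of this profile are lowered, while genes for lipid uptake, lysosomal digestion and growth factors are raised, a set often called disease-associated microglia. Microglia of the developing brain share part of that second set and divide far more often than adult cells.

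Of 12157 genes tested with edgeR, 2182 (17.9%) were higher and 2126 (17.5%) were lower in slice 3 weeks than in adult microglia at FDR < 0.05 and a fold change above 1.5, and these percentages are the background against which the counts of each gene list below can be read. Together, 35.4% of the tested genes passed, 799 higher and 440 lower by more than 4-fold. Levels are given as counts normalised to the UMI total of a library (CPM) on library sizes scaled by TMM factors, and fold changes are log2 values with their standard error (SE). The slice cells held more UMIs, with medians of 6112 and 5266 per cell against 3257 and 1858 in adult. Fold changes compare shares of a library's UMIs. If levels were compared per cell instead, the median of all genes moved by 1.08 on the log2 scale, and a gene or list whose fall is smaller than this turned to a rise, while falls somewhat larger than this lost their call. On that scale 6801 genes were higher and 335 lower, so the counts of the lists below move with those of all genes. All 10 microglial markers checked had counts in each of the 4 libraries. Within each of the 2 study labels that the libraries carry, each with 1 adult and 1 slice library, 99.98% and 100% of the called genes had the same direction, a share that was nearly fixed beforehand because the genes were called on these same libraries. The same limit holds wherever the groups of a called gene are said below not to overlap, and the share of all tested genes without overlap was not counted.

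**Figure D1:**
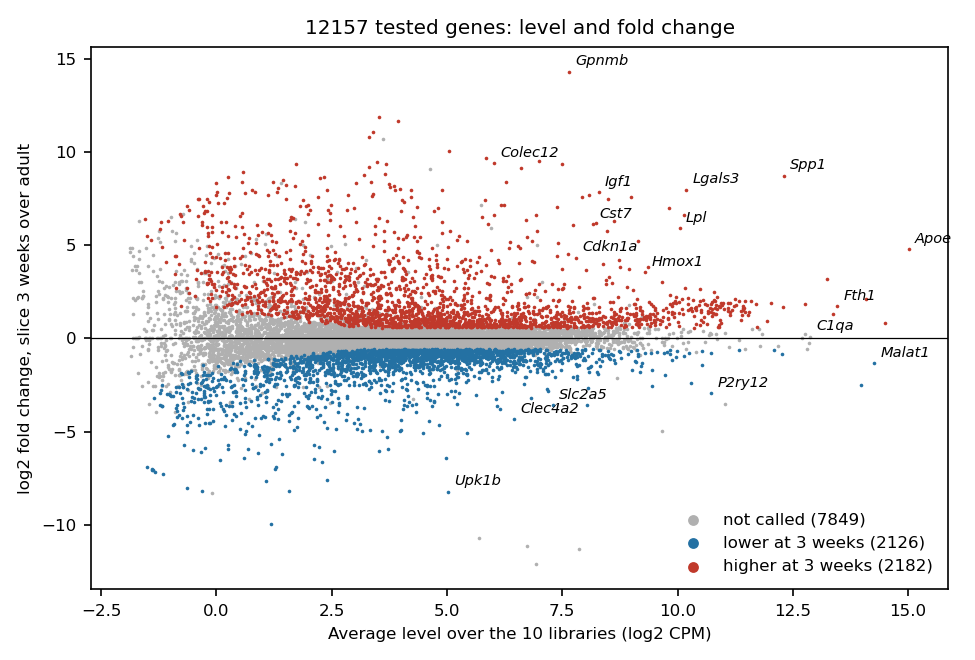
Each point is 1 of the 12157 tested genes, with its average level over the 10 libraries (log2 CPM) on the x axis and its log2 fold change, slice 3 weeks over adult, on the y axis. Red points are the 2182 genes called higher, blue points the 2126 called lower and grey points the 7849 not called, and the named genes run from Gpnmb at the top to Upk1b near the bottom.

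Several genes that were almost absent from adult microglia were higher at 3 weeks. Gpnmb, a transmembrane glycoprotein of late endosomes in phagocytes, had 0 counts in both adult libraries and 236 and 151 CPM in slice 3 weeks replicates 1 and 2, at least 1238-fold higher (edgeR adjusted p = 4.28e-07). Here and below such a bound sets the adult group at 3 counts over both libraries. Spp1, which encodes the secreted phosphoprotein osteopontin, was at 5.05 and 8.37 CPM in adult and at 4391 and 1253 CPM in the slice libraries (log2 fold change 8.74 ± 0.66 (SE), edgeR adjusted p = 8.73e-06). The slice libraries did not overlap with adult but lay apart from each other, and the log2 fold change of Spp1 was 7.61 without slice replicate 1 and 9.43 without slice replicate 2.

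Igf1, the growth factor that microglia supply to neurons and oligodendrocytes during development, was at 0.879 and 1.16 CPM in adult and 246 and 221 CPM in slice 3 weeks (log2 fold change 7.87 ± 0.22 (SE), edgeR adjusted p = 4.15e-08). Its 2 slice libraries were close to each other. Lgals3, a secreted galectin, rose from 3.81 and 3.99 to 675 and 1301 CPM (log2 fold change 7.99 ± 0.57 (SE), edgeR adjusted p = 6.68e-06), and the scavenger receptor gene Colec12 had 2 counts over both adult libraries and 2123 over both slice libraries, a ratio of 779 with a counting interval of 215 to 6433. Fn1, for the matrix protein fibronectin, was at 0.22 and 0.386 CPM in adult and 234 and 155 CPM in slice 3 weeks, and Mmp12, the macrophage elastase, at 1.17 and 1.29 CPM and 119.5 and 351 CPM (log2 fold change 7.58, and 6.66 without slice replicate 2). None of these genes overlapped between the groups, and both slice libraries were far above both adult libraries.

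The receptor genes Lilrb4a and Lilr4b rose together. Lilrb4a was at 3.15 and 6.83 CPM in adult and 388 and 325 CPM in slice 3 weeks (log2 fold change 6.21, and 6.81 without adult replicate 2), while Lilr4b had 3 counts in adult and 2581 in slice 3 weeks, a ratio of 631 with a counting interval of 216 to 3062. These are neighbouring paralogs, and how reads were divided between them is uncertain.

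**Figure D2:**
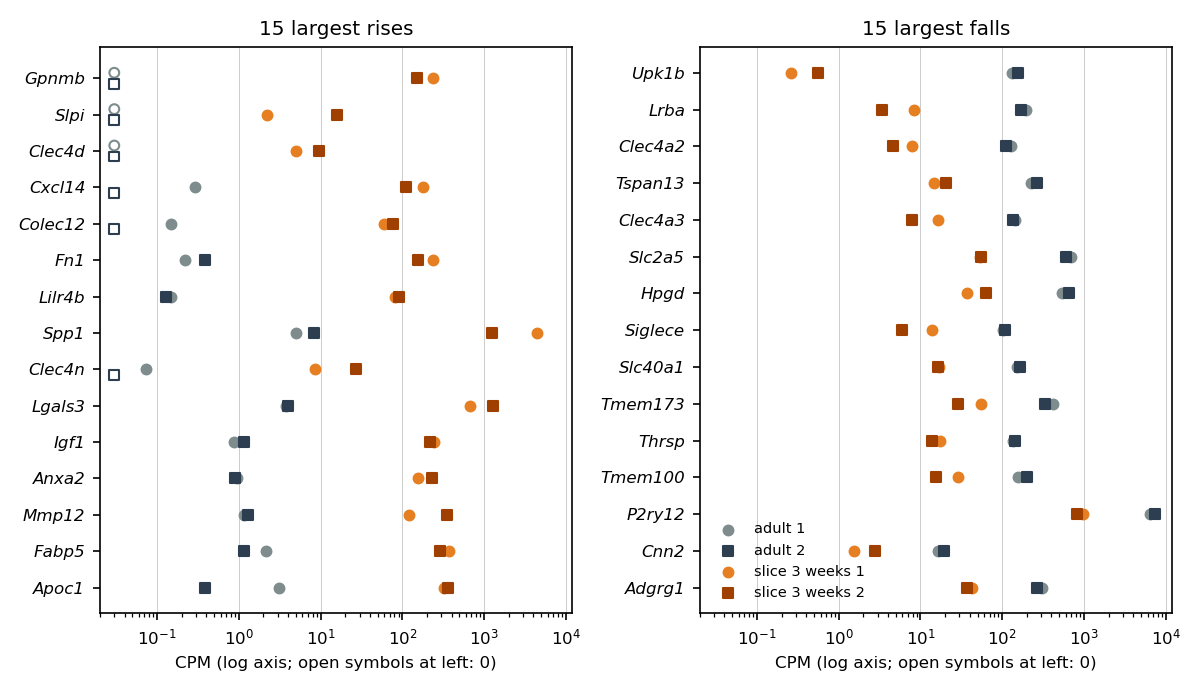
CPM (log axis) of the 15 called genes with the highest and the 15 with the lowest log2 fold change, taken from genes whose average log2 CPM was 5 or more, with 1 symbol per library. Open symbols at the left edge stand for libraries with 0 counts. For each of the 30 genes both slice libraries lie on the same side of both adult libraries, which was nearly fixed beforehand because the genes were chosen on these same libraries.

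Many genes of the adult microglial profile fell. Of 50 adult microglial identity genes, 38 were lower and 0 higher in slice 3 weeks, with a median log2 fold change of -0.99 beside -0.03 for all tested genes, a median that became 0.09 when scaled per cell, with 4 higher and 13 lower. Summed, the list took 19.4% and 18.5% of the UMIs of the adult libraries and 8.37% and 6.91% of those of the slice libraries. On the scale of UMI shares the members that passed the test were all lower, by amounts that differed widely.

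Slc2a5, which encodes the fructose transporter GLUT5 and is among brain cells a mark of microglia, fell from 689 and 608 CPM in adult to 53.8 and 54.3 CPM in slice 3 weeks (log2 fold change -3.58 ± 0.54 (SE), edgeR adjusted p = 0.000532). Siglech, a sialic acid binding lectin of microglia, fell from 1169 and 885 to 119 and 203 CPM (log2 fold change -2.67 ± 0.41 (SE), edgeR adjusted p = 0.000661), and Siglece, an inhibitory lectin of the same family, from 103 and 109 to 13.8 and 5.92 CPM (log2 fold change -3.51; -4.12 and -2.88 without slice replicates 1 and 2). The purinergic receptor gene P2ry13 and the lens crystallin gene Crybb1 fell by 1.93 and 2.08 on the log2 scale. The groups did not overlap for any of these genes. Adgrg1, an adhesion receptor, and Tmem100 fell by 2.87 and 3.03.

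The other 12 genes of the identity list were not called. Mertk, a receptor for apoptotic cells, had a log2 fold change of -0.36 and C1qb, a subunit of the first complement component, of -0.22, and neither passed the test. Beyond the list, 3 genes of lipid mediators, membrane organisation and nucleic acid sensing were among the largest falls. Hpgd, which degrades prostaglandins, fell from 541 and 655 to 36.6 and 64.1 CPM (log2 fold change -3.56 ± 0.32 (SE), edgeR adjusted p = 2.73e-05), the tetraspanin gene Tspan13 from 222 and 269 to 14.7 and 20.8 CPM (log2 fold change -3.77 ± 0.31 (SE), edgeR adjusted p = 1.41e-05), and Tmem173, which encodes the STING adaptor of cytosolic DNA sensing, from 415 and 333 to 54.3 and 29.2 CPM (log2 fold change -3.18 ± 0.27 (SE), edgeR adjusted p = 1.67e-05).

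Transcription factors changed in both directions. Of 40 myeloid and microglial transcription factors, 6 were higher and 16 lower, with a median of -0.36 (0.71 when scaled per cell, with 18 higher and 0 lower, and -0.19 without adult replicate 1). Sall1, a factor that microglial identity requires, fell from 128 and 108 CPM to 49.2 and 59.9 CPM (log2 fold change -1.11 ± 0.21 (SE), edgeR adjusted p = 0.002), and was at -0.05 and not called when scaled per cell. Its fall was shallower than that of Slc2a5 or Siglech. Foxp1 and the interferon regulatory factor Irf1 fell by 1.17 and 1.53. By contrast Id2, an inhibitor of helix-loop-helix factors, rose from 28.7 and 25.8 to 186 and 186 CPM (log2 fold change 2.77 ± 0.29 (SE), edgeR adjusted p = 6.14e-05), and the Krüppel-like factors Klf2 and Klf4 rose by 2.08 and 3.64 (2.92 for Klf2 without adult replicate 1, 2.99 for Klf4 without slice replicate 2). Runx1, a regulator of macrophage differentiation, had a log2 fold change of -0.04 and did not pass the test, and neither did Mitf, a regulator of lysosomal genes, at 0.43 (0.60 and called without slice replicate 1).

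TGF-beta signalling maintains the adult profile. Of 22 tested genes of the pathway, 2 were higher and 8 lower, with a median of -0.37 (0.75 when scaled per cell, with 9 higher and 2 lower), and 5 were lower without adult replicate 1. Tgfbr1, the signalling receptor chain, fell from 637 and 666 CPM to 147 and 168 CPM (log2 fold change -2.05 ± 0.19 (SE), edgeR adjusted p = 2.81e-05). The slice libraries held about the same low level. Tgfbr2, the chain that binds the ligand, did not pass the test at -0.24. Eng, an accessory receptor, and Smad1, a transducer, fell by 2.15 and 1.32.

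Genes of the disease-associated set moved the opposite way to the identity genes. Of 39 tested genes of this set, 34 were higher and 0 lower in slice 3 weeks, with a median of 2.76, and the list took 4.22% and 3.83% of the UMIs in adult and 12.3% and 10.4% in slice 3 weeks. Cst7, an inhibitor of lysosomal cathepsins, rose from 21.9 and 14.3 CPM to 917 and 1669 CPM (log2 fold change 6.15 ± 0.38 (SE), edgeR adjusted p = 2.71e-06). Lpl, the lipase that frees fatty acids from lipoproteins, rose from 17.3 and 27.3 to 1125 and 1593 CPM (log2 fold change 5.94 ± 0.30 (SE), edgeR adjusted p = 8.84e-07). Csf1, a growth factor for microglia themselves, rose from 8.64 and 7.21 to 58.2 and 50.4 CPM (log2 fold change 2.76 ± 0.20 (SE), edgeR adjusted p = 7.44e-06). In each case the lower slice library was several times above the higher adult library.

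Of the receptor complex known to drive this set in vivo, the adaptor gene rose and the receptor gene was not called. Trem2, the lipid sensing receptor, was at 3229 and 2588 CPM in adult and 3193 and 3823 CPM in slice 3 weeks and did not pass the test (log2 fold change 0.27 ± 0.16 (SE), edgeR adjusted p = 0.204), and Cd9, a tetraspanin of the same set, did not pass it either, at 2366 and 2523 CPM in adult and 2862 and 3031 CPM in slice 3 weeks (log2 fold change 0.27 ± 0.15 (SE), edgeR adjusted p = 0.192). The groups overlapped for Trem2 but not for Cd9. Tyrobp, the adaptor that signals for Trem2, rose by 0.94. Axl, a receptor for phosphatidylserine bridging proteins, rose from 4.76 and 1.8 to 38.3 and 81.6 CPM (log2 fold change 4.10; 5.12 without adult replicate 1 and 3.48 without slice replicate 2).

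Lipid handling genes followed. Of 34 genes for lipid uptake, transport and storage, 20 were higher and 2 lower, with a median of 1.56 (1.36 when genes at 0 in adult are set at their bound). The list took 0.338% and 0.302% of the UMIs in adult and 3.25% and 2.63% in slice 3 weeks. Apoe, the main lipoprotein apolipoprotein of the brain, accounted for most of this, at 1027 and 669.9 CPM in adult and 27036 and 20517 CPM in slice 3 weeks (log2 fold change 4.81 ± 0.25 (SE), edgeR adjusted p = 1.03e-06). Fabp5, a fatty acid carrier, rose from 2.12 and 1.16 to 374 and 289 CPM (log2 fold change 7.58, and 8.20 without adult replicate 1), and Plin2, which coats lipid droplets, from 24.3 and 24 to 366 and 316 CPM (log2 fold change 3.82 ± 0.18 (SE), edgeR adjusted p = 4.28e-07). Abca1, which exports cholesterol to apolipoproteins, rose less, from 62.1 and 55.1 to 87.2 and 136 CPM (log2 fold change 0.93 ± 0.20 (SE), edgeR adjusted p = 0.00398). Mgll, which breaks down monoacylglycerols and the endocannabinoid 2-AG, went the other way and fell from 81 and 78.4 to 11.4 and 16.4 CPM (log2 fold change -2.50 ± 0.22 (SE), edgeR adjusted p = 2.05e-05). The groups did not overlap for any of these 5 genes.

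About as many genes of sterol synthesis were called higher as were not called. Of 23 tested genes of the pathway, 12 were higher and 0 lower, with a median of 0.83, and 6 were called higher without adult replicate 1. The list took 0.0389% and 0.0403% of the UMIs in adult and 0.0473% and 0.0374% in slice 3 weeks, where the groups overlap. Hmgcs1 and Dhcr7, an early and a late enzyme of the pathway, rose by 1.02 and 0.97.

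The share of cells with a UMI of a gene was counted beside its level. Each cell was thinned to 1000 UMIs, and 66 and 205 adult cells with fewer were left out. Cst7 was then detected in 45.9% (95% exact interval 43 to 48.8%) and 62% (60.5 to 63.6%) of slice cells against 1.9% and 1.08% of adult cells. Gpnmb was detected in 9.97% (8.3 to 11.9%) and 7.01% (6.21 to 7.87%) of slice cells and in 0 of the adult cells, which allows shares of up to 0.0804% and 0.0903% at a limit of 3 cells (exact upper limits of 0.0988% and 0.111%). A UMI of Cst7 was thus found in more of the slice cells than one of Gpnmb at the same depth.

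Among these genes, Spp1 differed most between the slice libraries, with 47.2% (interval 44.3 to 50.1%) of cells in replicate 1 and 16.6% (15.4 to 17.8%) in replicate 2, against 0.348% and 0.301% in adult. Igf1 was detected in 16.7% and 14.5% of slice cells and in at most 0.151% of adult cells. P2ry12, the purinergic receptor used as a mark of resting microglia, was detected in 51.1% and 42.6% of slice cells against 99.2% and 99.5% of adult cells. A cell that holds few UMIs of a gene can show none once thinned. At their own depth, 84.2% and 73.7% of slice cells and 99.9% and 99.9% of adult cells held a UMI of P2ry12. These intervals cover counting error only, and with 2 libraries against 2 no test was made. These shares were not measured in a cell type that should lack the genes, so the level that free RNA gives was not read.

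**Figure D3:**
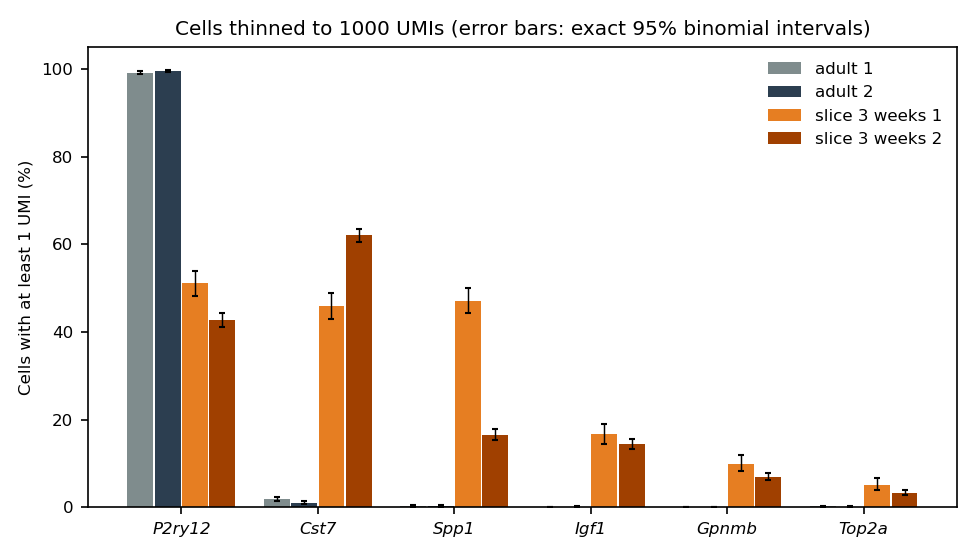
Percent of cells with at least 1 UMI of 6 genes in each of the 4 libraries, after each cell was thinned to 1000 UMIs. Bars are libraries and error bars are exact 95% binomial intervals for counting error, and Cst7, Spp1, Igf1, Gpnmb and Top2a lie higher in both slice libraries while P2ry12 lies lower, at 51.1% and 42.6%.

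Some lysosomal genes rose and fewer fell. Of 53 tested lysosomal hydrolases and membrane proteins, 17 were higher and 6 lower (32.1% and 11.3%), with a median of 0.25 (0.39 without adult replicate 1). With library size alone, 16 were higher and 11 lower, with a median of 0.04. Scaled per cell, 40 were higher and 0 lower, with a median of 1.36. Gla, the enzyme that cuts galactose from glycolipids, rose from 3.59 and 3.86 CPM to 64.6 and 65.8 CPM (log2 fold change 4.13 ± 0.22 (SE), edgeR adjusted p = 1.03e-06). Galns, which removes sulfate from keratan sulfate, rose from 10.3 and 9.66 to 91.5 and 98.7 CPM (log2 fold change 3.25 ± 0.15 (SE), edgeR adjusted p = 5.34e-07), and Hgsnat, which acts in heparan sulfate breakdown, from 46.1 and 55.4 to 498 and 802 CPM (log2 fold change 3.68 ± 0.26 (SE), edgeR adjusted p = 7.01e-06). Among the abundant proteases, Ctsd rose from 10111 and 8173 to 25962 and 19599.9 CPM (log2 fold change 1.32 ± 0.19 (SE), edgeR adjusted p = 0.000413), while Ctsb and Ctsl rose by 1.86 and 2.01. The groups did not overlap for Gla, Galns, Hgsnat or Ctsd. Acp2, an acid phosphatase, fell by 1.14, and Lamp1, the main protein of the lysosomal membrane, did not pass the test at 0.37 (0.62 and called without slice replicate 2).

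Lysosomal genes are known targets of TFEB and related factors, which bind the E-box CACGTG. The 250 bases upstream of the gene start were searched for these letters, which read the same on both strands, in the RefSeq promoters of GRCm38.p6. The E-box stood in 11 of the 43 lysosomal genes with an entry (25.6%), in 8.68% of the 9168 tested genes with one and in 6.05% of all 27025 promoters. Among genes called higher and lower it stood in 8.84% and 8.75%. The windows of Ctsd (chr7:142387828-142388077, minus strand) and Gla (chrX:134601006-134601255, minus strand) are shown as 2 lysosomal genes that rose and hold the letters, printed in capitals, starting 245 and 98 bases upstream in Ctsd and 227 and 194 bases upstream in Gla.
Ctsd: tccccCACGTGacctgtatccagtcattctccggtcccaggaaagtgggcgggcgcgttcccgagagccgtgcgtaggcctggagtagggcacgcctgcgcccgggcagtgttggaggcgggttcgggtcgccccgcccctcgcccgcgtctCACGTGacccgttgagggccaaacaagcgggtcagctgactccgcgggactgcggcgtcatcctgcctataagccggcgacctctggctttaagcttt
Gla: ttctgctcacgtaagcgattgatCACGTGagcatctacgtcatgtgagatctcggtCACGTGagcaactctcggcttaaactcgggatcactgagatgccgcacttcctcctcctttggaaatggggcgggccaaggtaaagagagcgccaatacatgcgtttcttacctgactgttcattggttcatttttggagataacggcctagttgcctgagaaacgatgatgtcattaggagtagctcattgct
A match describes the letters and is not a measured site.

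The proton pump that acidifies lysosomes changed in single subunits. Of 18 subunit genes, 5 were higher and 2 lower, with a median of 0.46, and 3 were higher without adult replicate 1. Atp6v0d2, a subunit isoform of osteoclasts and some macrophages, was at 0 counts in adult and at 33.6 and 27.7 CPM in slice 3 weeks, at least 209-fold higher (edgeR adjusted p = 2.71e-06). Atp6v1a, a catalytic subunit, rose by 1.81.

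Among iron genes, the ferritin heavy chain rose and the iron exporter fell. Fth1, the ferritin heavy chain, rose from 2939 and 2596 CPM to 9607 and 8987 CPM (log2 fold change 1.75 ± 0.17 (SE), edgeR adjusted p = 3.5e-05), while Slc40a1, ferroportin, the only known iron exporter of mammalian cells, fell from 149.9 and 164 to 17.1 and 16.5 CPM (log2 fold change -3.23 ± 0.20 (SE), edgeR adjusted p = 2.68e-06). Hmox1, which frees iron from heme, rose from 31.7 and 26.3 to 348 and 347 CPM (log2 fold change 3.58 ± 0.33 (SE), edgeR adjusted p = 3.3e-05). The 2 libraries of each group were close for all 3 genes. Of 22 tested genes of metal handling, 9 were higher and 3 lower, with a median of 0.51 (0.89 without adult replicate 1). The zinc binding metallothionein Mt1 rose by 1.91, and Hfe, a regulator of iron uptake, fell by 1.21.

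Adult replicate 1 held more haemoglobin RNA than the other libraries. The haemoglobin genes Hbb-bs and Hba-a1 were at 780 and 394 CPM in adult replicate 1, and both were at 0 in adult replicate 2. Neither was above 0.517 CPM in a slice library. Haemoglobin and platelet markers together summed to 1794 and 88.4 CPM in the adult libraries and 11.4 and 9.08 CPM in the slice libraries, so the sum in adult replicate 2 held no Hbb-bs or Hba-a1. Without adult replicate 1, the log2 fold changes of Fth1, Slc40a1 and Hmox1 were 1.90, -3.24 and 3.78.

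Fth1 and Hmox1 also belong to the antioxidant genes induced through NRF2, and this list rose broadly. Of 32 tested NRF2 target genes, 22 were higher and 0 lower, with a median of 1.18, and they took 0.929% and 0.992% of the UMIs in adult and 2.83% and 2.79% in slice 3 weeks. Txnrd1, which reduces thioredoxin, and Prdx1, a peroxidase, rose by 1.54 and 1.16. Gpx3, a secreted glutathione peroxidase, was at 0.659 and 0.386 CPM in adult and 48.9 and 98.5 CPM in slice 3 weeks (log2 fold change 7.04 ± 0.41 (SE), edgeR adjusted p = 1.92e-06). Nqo1, a much used marker of NRF2 activity, did not pass the test at 0.51, a value of low counts that was 5.11 without adult replicate 1 and -0.18 without adult replicate 2.

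Most of the genes of glycolysis and the pentose phosphate route were higher. Of 30 genes listed, 20 were higher (15 without adult replicate 1 and also without adult replicate 2) and 1 lower, with a median of 1.27, and the list took 0.415% and 0.409% of the UMIs in adult and 1.09% and 1.14% in slice 3 weeks. Slc2a1, the glucose transporter GLUT1, rose from 35.9 and 32.3 to 91.6 and 88.3 CPM (log2 fold change 1.40 ± 0.19 (SE), edgeR adjusted p = 0.0003), in contrast to the fructose transporter gene Slc2a5 above. Pkm, the last enzyme of the route, rose from 255 and 276 to 1808 and 1580.4 CPM (log2 fold change 2.67 ± 0.18 (SE), edgeR adjusted p = 5.35e-06). The lactate dehydrogenase subunits parted, as Ldha rose from 203 and 184 to 1006 and 961 CPM (log2 fold change 2.34 ± 0.18 (SE), edgeR adjusted p = 8.73e-06) and Ldhb fell from 772 and 846 to 439 and 397 CPM (log2 fold change -0.95 ± 0.20 (SE), edgeR adjusted p = 0.00414). The groups did not overlap for these 4 genes, and the fall of Ldhb was 0.17, a rise, when scaled per cell. Hk2, an inducible hexokinase, did not pass the test at 0.26.

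Genes of the integrated stress response and the unfolded protein response changed in both directions. Of 30 genes of both responses, 13 were higher and 3 lower, with a median of 0.36, and 5 were lower without slice replicate 1. Psat1, an enzyme of serine synthesis, rose from 11.9 and 12.1 CPM to 195 and 206 CPM (log2 fold change 4.07 ± 0.24 (SE), edgeR adjusted p = 1.98e-06), and Asns, the asparagine synthetase, from 1.17 and 2.06 to 44.1 and 46 CPM (log2 fold change 4.88 ± 0.49 (SE), edgeR adjusted p = 4.99e-05). Both adult libraries were at a low and both slice libraries at a like higher level for these genes. Atf4, their known activator, rose less, by 1.00, and was not called without adult replicate 2 (0.69) or without slice replicate 2 (0.81). Herpud1 and Dnajb9, which act in the removal of misfolded proteins from the endoplasmic reticulum, fell by 1.22 and 1.29, and Hspa5, its main chaperone, was at 0.03 and did not pass the test.

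Genes of mitosis rose without exception. All 40 mitosis genes were higher, with a median of 3.16, though they took only 0.0133% and 0.0129% of the UMIs in adult and 0.116% and 0.0722% in slice 3 weeks. Mki67, the antigen used to mark cycling cells, rose from 1.98 and 1.67 CPM to 35.8 and 40.2 CPM (log2 fold change 4.35 ± 0.37 (SE), edgeR adjusted p = 1.69e-05). Top2a, a topoisomerase of mitotic chromosomes, rose from 4.83 and 3.61 to 68.8 and 53 CPM (log2 fold change 3.81 ± 0.38 (SE), edgeR adjusted p = 5.18e-05), and Cdk1, the kinase that starts mitosis, from 6.45 and 5.41 to 81.4 and 44.5 CPM (log2 fold change 3.38 ± 0.34 (SE), edgeR adjusted p = 5.27e-05). The groups did not overlap for these genes. At 1000 UMIs per cell, Top2a was detected in 5.2% and 3.37% of slice cells and 0.214% and 0.151% of adult cells.

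Of 40 genes of DNA replication, 27 were higher and 0 lower, with a median of 1.44, and 13 were called without adult replicate 1. Without slice replicate 1, 22 were higher and 2 lower, with a median of 0.98. The list took 0.0565% and 0.0733% of the UMIs in adult and 0.131% and 0.0628% in slice 3 weeks, so slice replicate 2 lay between the adult libraries. Mcm2, a subunit of the replicative helicase, rose by 1.47 but was at 1.24 and not called without adult replicate 1, and at 0.77 and 2.09 without slice replicates 1 and 2. The gene E2f1, for a factor that activates replication genes, rose by 4.24. A gene of arrest rose beside those of division. Cdkn1a, the cell cycle inhibitor p21, rose from 15.8 and 16.4 CPM to 233 and 419 CPM (log2 fold change 4.34 ± 0.40 (SE), edgeR adjusted p = 3.13e-05). Of 22 genes of G1 cyclins, inhibitors and the p53 route, 6 were higher and 4 lower, with a median of 0.36 (0.13 without slice replicate 2), and 3 were higher and 2 lower without adult replicate 1. Btg2, an antiproliferative gene, fell by 2.42.

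Many mitosis genes are known to be controlled through the CHR element TTTGAA. These letters were searched on both strands in the same 250-base windows. The letters stood in 13 of the 33 mitosis genes with an entry (39.4%), in 10.5% of the tested genes and in 16.3% of all promoters, and in 11.7% and 11% of the genes called higher and lower. The windows of Cdk1 (chr10:69352913-69353162), Top2a (chr11:99024190-99024439) and Mki67 (chr7:135716380-135716629), all on the minus strand, are shown because each holds the letters 2 times, in capitals as they stand or as their reverse complement, starting 71 and 15 bases upstream in Cdk1, 179 and 23 in Top2a, and 116 and 98 in Mki67.
Cdk1: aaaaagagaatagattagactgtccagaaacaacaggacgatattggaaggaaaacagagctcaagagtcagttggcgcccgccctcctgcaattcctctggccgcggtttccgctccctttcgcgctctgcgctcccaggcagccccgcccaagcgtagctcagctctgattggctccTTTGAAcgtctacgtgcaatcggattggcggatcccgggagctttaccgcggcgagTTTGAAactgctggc
Top2a: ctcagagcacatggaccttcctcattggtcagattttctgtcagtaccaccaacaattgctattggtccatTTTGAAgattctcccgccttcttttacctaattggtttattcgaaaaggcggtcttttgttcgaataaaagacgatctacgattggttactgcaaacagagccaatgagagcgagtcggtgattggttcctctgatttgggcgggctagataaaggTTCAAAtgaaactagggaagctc
Mki67: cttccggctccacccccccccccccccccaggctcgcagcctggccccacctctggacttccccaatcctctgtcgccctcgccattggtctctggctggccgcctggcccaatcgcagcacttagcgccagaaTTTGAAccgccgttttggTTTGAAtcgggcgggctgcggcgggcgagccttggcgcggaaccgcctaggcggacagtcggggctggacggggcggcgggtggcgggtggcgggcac
The 3 further motifs searched were an M-box (CATGTG), an AP-1 site (TGACTCA) and an ETS site (CCGGAAG), found in 7.45%, 2.93% and 14.5% of the tested genes.

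Genes for inflammatory mediators did not move as 1 group. Of 19 tested chemokine genes, 10 were higher and 1 lower, with a median of 1.34 (3.15 without adult replicate 1). Ccl3, a chemokine for monocytes and lymphocytes, rose from 38.2 and 49.2 CPM to 870.3 and 732 CPM (log2 fold change 4.20 ± 0.20 (SE), edgeR adjusted p = 5.34e-07), Ccl4, its neighbour, rose by 3.86, and Cxcl14 was at 0.293 and 0 CPM in adult and 181 and 109.7 CPM in slice 3 weeks. The groups did not overlap for these 3 genes. Of 30 tested cytokine and growth factor genes, 13 were higher and 8 lower, with a median of 0.39.

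Tnf, a main cytokine of acute inflammation, rose from 2.49 and 2.83 CPM to 39.8 and 12.8 CPM (log2 fold change 3.28 ± 0.57 (SE), edgeR adjusted p = 0.00125), but its size depended on the slice library, at 2.32 without slice replicate 1 and 3.97 without slice replicate 2. Il1b remained low, at 1.68 and 1.29 CPM in adult and 5.82 and 4.84 CPM in slice 3 weeks (edgeR adjusted p = 0.033), and was not called when any 1 of the 4 libraries was left out (log2 fold change 1.63 to 2.07). Il1a, the other interleukin-1, fell from 86.9 and 71.1 to 22.9 and 23.2 CPM (log2 fold change -1.78 ± 0.25 (SE), edgeR adjusted p = 0.0004; -0.71 and not called when scaled per cell), and Il18 and Il16 fell by 1.72 and 2.30. Mif, a constitutive cytokine, rose from 139.8 and 119 to 838 and 1240.2 CPM (log2 fold change 3.01 ± 0.24 (SE), edgeR adjusted p = 1.09e-05).

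As shares of UMIs, receptors for these mediators were more often lower, and scaled per cell more often higher. Of 40 tested cytokine and chemokine receptor genes, 5 were higher and 18 lower, with a median of -0.40 (0.64 when scaled per cell, with 19 higher and 5 lower). Il10ra and Il6ra, the specific chains for IL-10 and IL-6, fell by 1.87 and 2.08. Tnfrsf17, a receptor best known from plasma cells, fell from 72.6 and 56 CPM to 2.85 and 5.96 CPM (log2 fold change -3.77 ± 0.50 (SE), edgeR adjusted p = 0.000257; -4.44 without slice replicate 2). Ccr1, a receptor for Ccl3, rose by 1.93.

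Of 45 tested innate sensing and lectin genes, 14 were higher and 18 lower, with a median of -0.12 (0.96 when scaled per cell, with 23 higher and 7 lower, and 0.03 without adult replicate 1), and 9 were higher without adult replicate 2. The Clec4 lectins, which sit in 1 gene cluster, divided. Clec4a2, an inhibitory member, fell from 127 and 109.9 CPM to 7.89 and 4.56 CPM (log2 fold change -4.32 ± 0.44 (SE), edgeR adjusted p = 5.46e-05), and Clec4a3 fell by 3.60. Clec4d and Clec4n, activating members that signal through an ITAM adaptor, were higher, Clec4d with 0 counts in adult and 5.05 and 9.64 CPM in slice 3 weeks (at least 60.1-fold higher), and Clec4n with 1 count in adult and 654 in slice 3 weeks, a ratio of 479.7 with a counting interval of 85.8 to 18976.

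Of 31 genes of NF-kB signalling and its feedback, 9 were higher and 5 lower, with a median of 0.43, and 3 were lower without adult replicate 1 and also without slice replicate 2. Nfkb1, a subunit of the factor, fell by 1.38, while Ier3, an early response gene, rose by 4.04. Immediate early genes depend on handling during isolation and were split at 7 higher and 7 lower of 26 tested, with a median of 0.31 (0.60 and 0.17 without adult replicates 1 and 2). Jun and Btg2 were lower, Jun from 373 and 281 to 96.4 and 81 CPM (log2 fold change -1.88 ± 0.25 (SE), edgeR adjusted p = 0.000255), and Atf3 rose from 11.4 and 13.4 to 113 and 139 CPM (log2 fold change 3.35 ± 0.22 (SE), edgeR adjusted p = 4.58e-06). Fos was at 16 and 0.773 CPM in the adult libraries and 14.9 and 16.3 CPM in the slice libraries, so the 2 adult libraries differed from each other, and its log2 fold change of 0.78 was not called, but was 4.38 and called without adult replicate 1 and 1.52 and called with the replicate block in the fit of the 4 libraries.

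Antigen presentation genes were seldom called for class I and more often lower than higher for class II. Of 23 class I genes, 0 were higher and 4 lower, with a median of -0.24 (0.83 when scaled per cell, with 11 higher and 0 lower, and 0.30 without adult replicate 1), a share of calls below the background. H2-K1 and H2-D1, the classical chains, had log2 fold changes of 0.46 and 0.00 and did not pass the test. Of 13 tested class II genes, 2 were higher and 8 lower, with a median of -0.99 (0.22 when scaled per cell, with 2 higher and 4 lower, and -0.60 without slice replicate 2), and 5 were called lower without adult replicate 1. Cd86, the costimulatory ligand, fell from 288 and 251 to 111 and 106 CPM (log2 fold change -1.31 ± 0.19 (SE), edgeR adjusted p = 0.000383; -0.23 and not called when scaled per cell). The class II chains themselves were uneven, with H2-Aa at 19.8 and 13.1 CPM in adult and 0.259 and 1.49 CPM in slice 3 weeks, not called without adult replicate 1 (edgeR adjusted p = 0.0634, log2 fold change -3.58; -5.90 without slice replicate 2). H2-Ab1 was at 41.2 and 28.5 CPM in adult and 38.2 and 125 CPM in slice 3 weeks, where the groups overlap. It was called higher (log2 fold change 1.24 ± 0.44 (SE), edgeR adjusted p = 0.0437), a call lost without any of adult replicate 1 (1.59), adult replicate 2 (1.00) and slice replicate 2 (0.18), and at 1.87 without slice replicate 1. With the replicate block in the fit of 10 libraries it was at 1.02 and not called.

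Interferon-stimulated genes showed no common direction. Of 45 tested, 6 were higher and 10 lower, with a median of -0.35 (0.69 when scaled per cell, with 21 higher and 3 lower). The list depended on the adult library, with 10 higher and 7 lower and a median of 0.19 without adult replicate 1 and 4 higher and 15 lower without adult replicate 2. Ifitm2, a membrane protein that restricts viral entry, rose from 5.42 and 1.8 to 346 and 259 CPM (log2 fold change 6.31, and 7.44 without adult replicate 1). Gbp7, a guanylate binding protein, fell by 3.60 (-4.48 and -2.73 without slice replicates 1 and 2). Isg15, a ubiquitin-like protein and a common marker of the response, was at 0.02 and not called, but at 0.94 and called without adult replicate 1.

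Of 33 tested phagocytic receptor and engulfment genes, 12 were higher and 5 lower, with a median of 0.56 (0.57 without adult replicate 2 and 0.30 without slice replicate 2). Msr1, a scavenger receptor, rose from 1.03 and 0.773 to 37 and 22.9 CPM (log2 fold change 4.98 ± 0.30 (SE), edgeR adjusted p = 2.6e-06), and Elmo1, which links engulfment receptors to the actin machinery, fell by 1.68. Of 18 tested complement genes, 7 were higher and 2 lower, with a median of 0.73, and C3ar1, the receptor for C3a, rose by 0.99.

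Cytoskeletal and annexin genes were more often higher than lower. Of 43 genes of the cytoskeleton, annexins, galectins and S100 proteins, 23 were higher and 4 lower, with a median of 0.78. Vim, the intermediate filament vimentin, rose from 1.61 and 1.67 CPM to 102 and 118 CPM (log2 fold change 6.07 ± 0.39 (SE), edgeR adjusted p = 3.25e-06), and Anxa2 and Lgals1 rose by 7.70 and 6.63. Of 35 integrins, tetraspanins and other adhesion genes, 8 were higher and 12 lower, with a median of -0.02 (0.88 when scaled per cell, with 17 higher and 3 lower, and 0.03 without adult replicate 1). Itga5, the fibronectin receptor chain, rose by 2.42, beside the rise of Fn1.

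**Figure D4:**
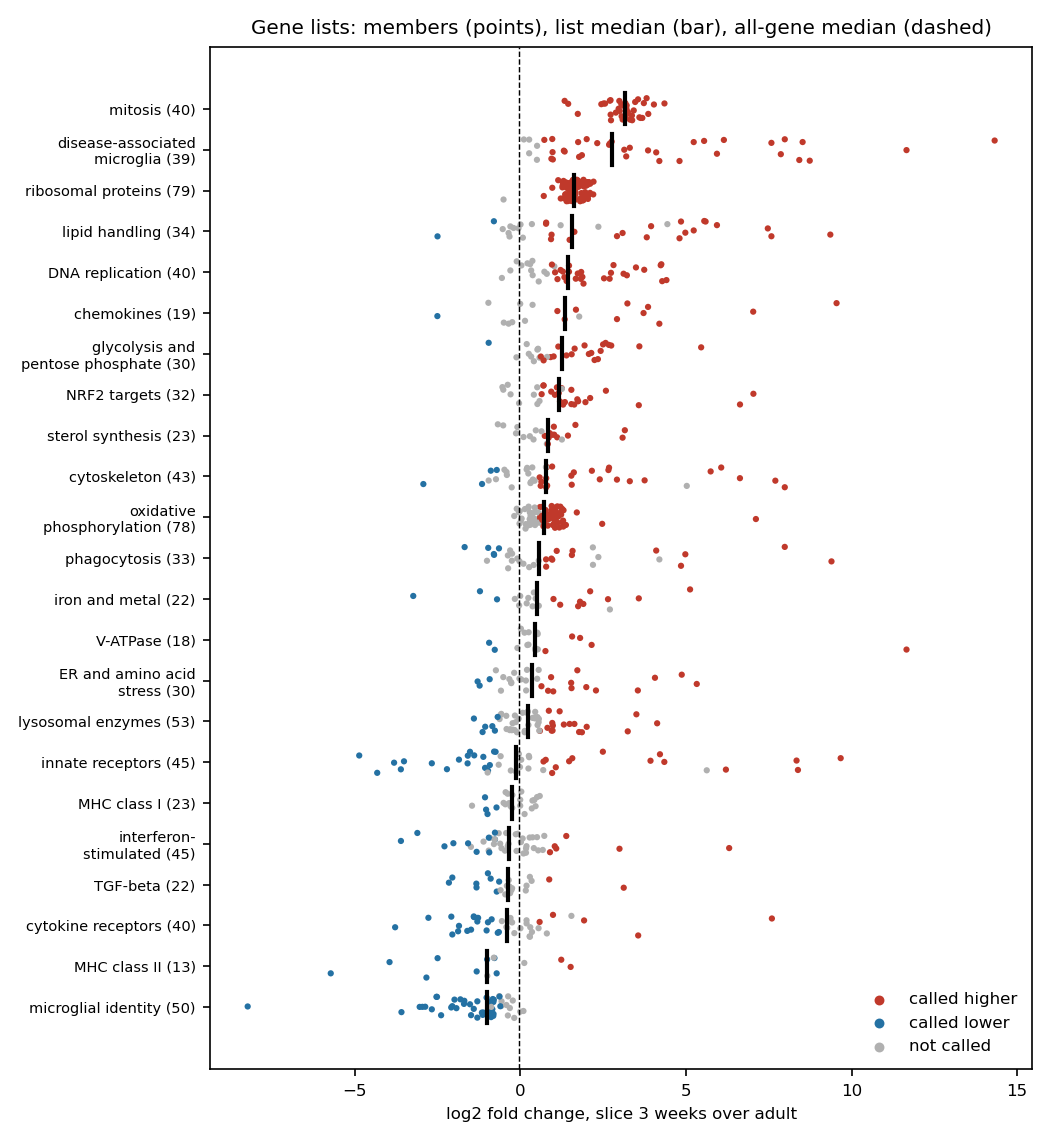
Each row is a gene list and each point a tested member, with the log2 fold change, slice 3 weeks over adult, on the x axis. Bars are list medians and the dashed line is the all-gene median of -0.03, and the medians run from -0.99 for the identity and MHC class II lists to 3.16 for the mitosis list.

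Cytosolic ribosomal protein genes rose, and genes of respiration were often higher. Of 78 nuclear genes of oxidative phosphorylation, 48 were higher and 0 lower, with a median of 0.72. Of 79 cytosolic ribosomal protein genes, 78 were higher, with a median of 1.64, and of 61 tested translation factors 22 were higher and 1 lower, with a median of 0.29 (18 higher and 5 lower, with a median of 0.09, with library size alone). Of 76 mitochondrial ribosomal protein genes, 6 were higher and 1 lower, with a median of 0.10 (-0.10 with library size alone; 72 higher and 0 lower, with a median of 1.21, when scaled per cell), and 11 were higher without slice replicate 2. Proteasome subunits, with 7 higher and 0 lower of 38, had a median of 0.15 (-0.05 with library size alone, and 0.06 and 0.31 without slice replicates 1 and 2). Scaled per cell, 35 of these subunits were higher and 0 lower, with a median of 1.29. The nuclear RNA Malat1 fell from 36406 and 45190.5 to 13969 and 18727 CPM (log2 fold change -1.32 ± 0.21 (SE), edgeR adjusted p = 0.000685; -0.20 and not called when scaled per cell), and Neat1, another nuclear RNA, rose by 2.01.

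Of 34 tested heat shock and chaperone genes, 10 were higher and 1 lower, with a median of 0.27. With library size alone, 7 were higher and 3 lower, with a median of 0.07, and scaled per cell 27 were higher and 1 lower, with a median of 1.37. Hspa9, a mitochondrial chaperone, and Hsp90ab1, a constitutive form of HSP90, rose by 1.40 and 1.32.

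Markers of other cells were counted beside these results. The monocyte list summed to 7.91 and 5.67 CPM in adult and 239 and 159 CPM in slice 3 weeks, nearly all of it Fn1, with 2 higher and 2 lower of 12 tested. The defining monocyte genes Ly6c2 and Chil3 had 0 counts in all 4 libraries. Ccr2, a chemokine receptor of monocytes, was at 2.64 and 3.35 CPM in adult and 0.647 and 0.326 CPM in slice 3 weeks, and Plac8, also of monocytes, at 3.81 and 1.03 and 0 and 0.0932 CPM, both called lower (log2 fold changes -2.77 and -5.10). Neither was called without slice replicate 2 (-2.11 and -7.98), and Plac8 was not called without adult replicate 1 (-3.69). Border macrophage markers summed to 162 and 122 CPM in adult and 363 and 299 CPM in slice 3 weeks, with 7 of 13 tested higher and 1 lower. Of these, Ms4a7 and Folr2, which border macrophages share with other macrophages, rose by 5.21 and 4.91. Pf4 was at 4.32 and 1.29 CPM in adult and 65.1 and 15.5 CPM in slice 3 weeks. F13a1 was at 0.732 and 0.129 CPM in adult and 7.5 and 17.4 CPM in slice 3 weeks, and Mrc1 at 4.4 and 3.35 and 8.67 and 14.1 CPM. Cd163 and Lyve1 of the same list were at 0.258 CPM or less in each of the 4 libraries. Oligodendrocyte markers summed to 123 and 137 CPM in adult and 172 and 117 CPM in slice 3 weeks, with 4 of 8 tested higher and 2 lower. Of these, Cnp, an enzyme of myelin, fell by 1.01, a call lost without adult replicate 1 (-1.03), adult replicate 2 (-0.93) or slice replicate 2 (-0.55). It was at 0.15 and not called when scaled per cell. Mbp, a myelin protein, rose from 6.45 and 8.37 to 54.1 and 30.3 CPM (log2 fold change 2.51 ± 0.30 (SE), edgeR adjusted p = 0.000139). Summed levels of some lists were lower in slice 3 weeks. Astrocyte markers summed to 147 and 133 CPM in adult and 38.2 and 42.6 CPM in slice 3 weeks, with 2 higher and 1 lower of 7 tested. Without adult replicate 1, 0 were higher and the median went from -1.50 to 2.30, and without adult replicate 2 or slice replicate 2, 1 was higher. Vascular markers summed to 32.7 and 30.7 CPM in adult and 13.6 and 8.9 CPM in slice 3 weeks, with 1 higher and 1 lower of 5, and lymphocyte markers to 62.8 and 67.7 CPM in adult and 29.1 and 32.5 CPM in slice 3 weeks, with 1 higher and 1 lower of 2. Haemoglobin and platelet markers, whose summed levels stand beside the iron genes, had 0 higher and 1 lower of 7 tested, and 6 lower without adult replicate 2 and also when scaled per cell. Of the tested neutrophil markers, 1 of 14 was higher and 0 lower, and 0 were higher when adult replicate 1, adult replicate 2 or slice replicate 2 was left out. Neuronal markers summed to 3.37 and 3.48 CPM in adult and 12.3 and 5.96 CPM in slice 3 weeks, with 3 higher and 0 lower of 7 tested. Without adult replicates 1 and 2 in turn, 0 and 1 were higher. With cells holding 3 or more UMIs of any of these lists but the border macrophage and astrocyte ones left out, which took out 25.8% and 14.3% of slice cells and 10.5% and 0.936% of adult cells, 2318 genes were higher and 1832 lower. The monocyte list marked 217 of the 298 and 383 of the 533 slice cells left out, so this mostly removed slice cells with UMIs of Fn1, itself called higher, and the part of other cell types in the results was not tested.

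A level is particular to slice 3 weeks only if it also differs from the other cultures of the series. These were microglia from mixed glial cultures in vitro and from slices cultured for 1 day and 1 week, with 2 libraries each. Against all 4 other groups, 44 genes were higher (0.362% of those tested) and 15 were lower (0.123%), at the same thresholds in each contrast. Cst7 stood out, with a mean of 1293 CPM at 3 weeks, 18.1 CPM in adult, 7.68 and 7.24 CPM in vitro, 27.5 and 28.3 CPM at 1 day and 42.5 and 81.9 CPM at 1 week. Its smallest log2 fold change over the 4 contrasts was 4.47. The lysosomal genes Hgsnat and Ctsd were also in this set. Hgsnat had a mean of 650.1 CPM at 3 weeks and at most 284 CPM in any other library, and Ctsd a mean of 22781 CPM against at most 10111 CPM.

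Ank, a pyrophosphate exporter, Pdgfa, a growth factor for oligodendrocyte precursors, and Ctsa, a protective protein of the lysosome, were higher than in each other group by at least 2.04, 1.14 and 1.07 on the log2 scale. Top2a was higher by at least 1.10. The largest falls of this kind were Clec4a2, with a smallest difference of 3.62 from any group, and Cnn2, a calponin of the actin cytoskeleton, with 2.92. Other large rises over adult were not particular to 3 weeks. Gpnmb was at 599 and 760.4 CPM in vitro and 71.1 and 87 CPM at 1 week, and Apoe at 73978 and 65392 CPM in vitro, above its level at 3 weeks. The 1 day and 1 week libraries were small and held neutrophil markers, with 3 or more UMIs of that list in 400 of 518 and 1014 of 1014 cells at 1 day and in 148 of 148 and 5 of 61 cells at 1 week. The part of these cells in the contrasts was not tested.

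**Figure D5:**
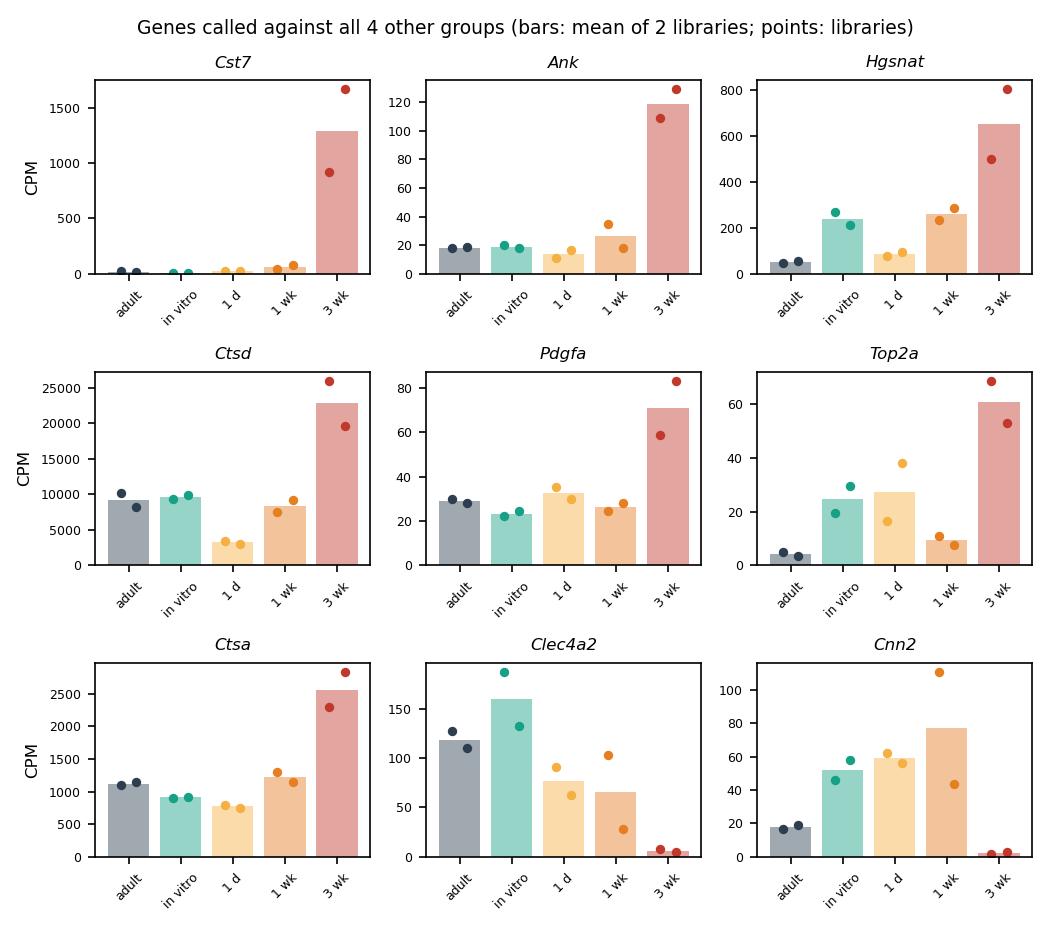
CPM (linear axes that start at 0) in the 10 libraries for Cst7, Ank, Hgsnat, Ctsd, Pdgfa, Top2a and Ctsa, called higher, and Clec4a2 and Cnn2, called lower, at 3 weeks than in each of the 4 other groups. Points are libraries and bars are means of 2 libraries, and for Cst7 the slice 3 weeks libraries lie at 917 and 1669 CPM, above every other library, the highest of which is at 81.9 CPM.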

How the data were processed

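Single cells of 10 libraries, 2 for each of the adult, slice 3 weeks, slice 1 week, slice 1 day and in vitro groups, were read from the tables of raw UMI counts that the authors deposited, 1 per library, with genes in rows and cell barcodes in columns. The submitters' processing notes name Cell Ranger 1.3.0 and mm10. Whether the tables precede the aggregation step of Cell Ranger and how reads of paralogs were assigned is not given in the sources used here. A gene without a row in a library was taken as 0. The 4 libraries compared here listed 12469 barcodes, and kept cells held 7819156 and 22332658 UMIs in slice 3 weeks and 12388843 and 6798474 in adult. A count of 0 over a group allows 0.140 CPM in adult and 0.103 CPM in slice 3 weeks. At most 21 barcodes were shared between any pair of libraries. No doublet caller was run.

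Counts were summed over the kept cells of a library and fitted with edgeR 4.0.16 in R 4.3.3 (glmQLFit and glmQLFTest after TMM scaling, with genes kept by filterByExpr at 10 counts) in 1 model of the 5 groups, whose 10 libraries share the estimate of the spread (biological coefficient of variation 18.3%, 5 residual degrees of freedom). Genes were called at an FDR of 0.05 (Benjamini-Hochberg over 12157 genes) and a fold change of 1.5. On simulated counts, 59% of genes changed 2-fold and 100% of those changed 4-fold were recovered, with 4 false calls. That simulation changed 200 genes with a mean above 5 CPM, as many up as down, and gave all genes 1 common spread. The data differ from it in each of these settings, so its shares cannot be carried over to the calls made here. Alternatives used DESeq2 1.42.0, other scalings, filters, cells and libraries. A two-sided permutation test of 2 libraries against 2 cannot give a p below 0.333, so values with 1 number per library were not tested. In adult and slice 3 weeks, replicate 1 carries one study label and replicate 2 the other, so the replicate number marks a shared label, and deviations of same-numbered libraries correlated at r = 0.102 over 7333 genes. Gene lists were written from general knowledge, and the comparison, the lists and the rule for named genes were chosen with earlier results of these data known. Named genes were the 15 largest called rises and falls (average log2 CPM 5 or more), up to 3 of each per list (4 or more), genes named beforehand in each list, and the 8 in each direction that differ most from all other groups. The results of some of these genes are not reported here. Promoters came from RefSeq (GRCm38.p6), with an entry for 9168 of the tested genes.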

Additional observations from a re-analysis of the deposited data

How the results depend on the processing

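The 2182 rises and 2126 falls were 2294 and 1996 with RLE factors, 2248 and 1885 with DESeq2, 2663 and 2024 with no filter on low counts, 1935 and 1638 with the 4 libraries alone and 2326 and 1971 with all deposited barcodes. Leaving out 1 library gave 1663 to 2583 rises and 1369 to 2204 falls, the fewest falls without adult replicate 1. With each cell thinned to 1000 UMIs, 1751 genes were higher and 1358 lower. Rises were 50.6% of all calls. They were 35.8% with library size alone (1705 higher, 3059 lower, all-gene median -0.24) and 95.3% when scaled per cell (6801 higher, 335 lower, all-gene median 1.05). With the replicate block, which is the study label, 2212 genes were higher and 2186 lower in the fit of 10 libraries and 2136 and 1817 in the fit of the 4 libraries, and among the 143 genes named with a test it changed only the calls of H2-Ab1 and Fos. Genes particular to slice 3 weeks were 59 higher and 21 lower at an FDR of 0.05 without the limit on fold change.

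Scaled per cell, C1qb (0.89), Runx1 (1.05), Tgfbr2 (0.79), Ldhb (0.17) and Cnp (0.15) turned from a negative to a positive log2 fold change, 14 named falls were no longer called and 10 named genes were newly called. RLE factors and all barcodes changed no call of a named gene, and DESeq2 changed only that of Plac8, no longer called.

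At their own depth, a mean of 21.1% of slice cells held a UMI of Gpnmb, 64.2% of Spp1, 86.5% of Cst7, 46.1% of Igf1, 79.0% of P2ry12 and 9.86% of Top2a, and of adult cells 0.652% held one of Spp1, 4.15% of Cst7, 0.258% of Igf1, 99.9% of P2ry12 and 0.297% of Top2a. Each share is above that at 1000 UMIs, but slice cells were deeper. The 2 libraries per group limit every statement, and adult replicate 2, with the fewest UMIs per cell, limits genes of low level.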

Other observations

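Cd68, a glycoprotein of phagocyte lysosomes, was at 1291 and 1264 CPM in adult and 2544 and 2453 CPM in slice 3 weeks (log2 fold change 0.97 ± 0.14 (SE), edgeR adjusted p = 0.000522), and Cd63, a tetraspanin of late endosomes, at 787 and 846 and 2903 and 2695 CPM (log2 fold change 1.78 ± 0.14 (SE), edgeR adjusted p = 1.39e-05). Ifi30, a thiol reductase that prepares antigens in endosomes, rose by 1.52 on the log2 scale. Both slice libraries were above both adult libraries for these 3 genes.

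Thrsp, a gene linked to fatty acid synthesis in liver, fell from 135 and 144 to 17.5 and 14 CPM (log2 fold change -3.16 ± 0.38 (SE), edgeR adjusted p = 0.00015). Gp9, a platelet receptor chain, fell by 3.41. The haemoglobin gene Hbb-bs was at 780 CPM in adult replicate 1 and at 0 in adult replicate 2. Without adult replicate 1, the log2 fold change of Gp9 was -3.16.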
